A study of Mus musculus with 10 samples.

Results

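The genes described here encode the machinery that copies DNA in S phase. They are 54 genes chosen by symbol, namely the genes of origin licensing, helicase activation, the replicative polymerases and their clamp, nucleotide supply, chromatin assembly, fork protection and entry into S phase. Each symbol occurred once among the 55487 genes of the table, and all 54 genes passed the filter on low counts, with no fewer than 20 counts in any ovary. RNA was measured by sequencing in whole ovaries of 10 C57BL/6J mice, with a library for each ovary. The 4 Control mice were 8 weeks old. The labels give an age of 11 months, and the study's methods 10 months, for the 3 Aged mice and the 3 Aged+CF mice. Aged+CF mice received CEFFE, the protein-containing liquid left when fat tissue is emulsified and centrifuged, at 200 µL of 3 µg/µL into the tail vein every 2 days for 2 weeks, and the study's methods give saline to the Control and Aged mice. All mice of the 3 groups received 10 IU of PMSG, a gonadotropin that stimulates follicles to grow, 48 h before the ovaries were taken. The ovaries are named here by group and replicate number, and values by ovary are always given in the order Control 31, 32, 33 and 34, Aged 31, 33 and 34, and Aged+CF 30, 32 and 34.

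DNA is copied once in each cell cycle. In G1 the origin recognition complex, with CDC6 and CDT1, loads the ring-shaped MCM helicase onto DNA, and at the start of S phase CDC45 and GINS turn the loaded ring into a working helicase. Primase and polymerase alpha then lay down primers, polymerase epsilon extends the leading strand and polymerase delta the lagging strand, both held to DNA by the PCNA clamp, and FEN1 and DNA ligase I join the lagging-strand fragments. Many of these genes are targets of E2F transcription factors. In the ovary the granulosa cells of growing follicles are the main dividing cells, whereas oocytes are arrested in meiosis and luteal cells have left the cell cycle.

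The promoters are shown first because E2F-type sites are what this gene set is known to share. RefSeq promoters (build GRCm38.p6, 250 bases before to 50 bases after the start) were found for 44 of the 54 genes. They were searched on both strands for the E2F-type letters TTTCCCGC, TTTCGCGC, TTTGCCGC and TTTGGCGC, of which some overlap each other on opposite strands, and for CCAAT. The 5 genes below have an E2F-type motif within a stretch of 100 bases that lies before the start or reaches at most 20 bases into the GENCODE gene. The windows lie at chr4:108579343-108579442 on the plus strand for Orc1, chr4:34614968-34615067 on the minus strand for Orc3, chr8:75109276-75109375 on the plus strand for Mcm5, chr1:128359737-128359836 on the minus strand for Mcm6 and chrX:93632278-93632377 on the minus strand for Pola1. They are written 5′ to 3′ on the strand of the gene, and the capitals mark E2F-type motifs and, in Orc1 and Mcm6, CCAAT or its reverse complement.
Orc1: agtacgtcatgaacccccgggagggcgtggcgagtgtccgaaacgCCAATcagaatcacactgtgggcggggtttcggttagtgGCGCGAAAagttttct
Orc3: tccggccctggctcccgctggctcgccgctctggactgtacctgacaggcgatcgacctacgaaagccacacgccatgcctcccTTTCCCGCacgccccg
Mcm5: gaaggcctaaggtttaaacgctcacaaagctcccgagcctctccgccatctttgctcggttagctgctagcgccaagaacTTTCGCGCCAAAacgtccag
Mcm6: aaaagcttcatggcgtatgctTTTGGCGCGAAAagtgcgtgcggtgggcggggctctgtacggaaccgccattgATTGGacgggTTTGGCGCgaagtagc
Pola1: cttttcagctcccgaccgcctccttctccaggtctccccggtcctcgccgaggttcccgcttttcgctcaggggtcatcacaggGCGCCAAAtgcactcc

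An E2F-type motif was found in the 300-base promoter of 16 of the 44 genes (36.4%), beside 4.27% of the 12698 genes that had a promoter and passed the filter, and 2.26% of all 32851 promoters. In the 100 bases directly before the start, a narrower search than that behind the windows shown, it was found in 5 of 44 (11.4%), beside 1.56% of the genes that passed. CCAAT, a short and common motif, was found in 25 of 44 (56.8%), beside 42.2% of the genes that passed and 37.4% of all promoters. The 16 genes with the E2F-type motif were Mcm3, Mcm5, Mcm6, Mcm7, Orc1, Orc3, Clspn, Rfc3, Lig1, Pold1, Pold3, Gins3, Cdt1, Cdc6, Pole2 and Pola1. A match describes letters in the window and is not evidence that a factor binds there.

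The depth, as the total count on genes, was 15761789 to 21318254 per ovary. Oocyte and granulosa cell markers were detected in every ovary, with at most 1 of the 20 oocyte markers and none of the 12 granulosa cell markers at 0. Control 33 and Aged 34 stood apart by summed oviduct markers, at 491 and 391 CPM (counts scaled to the TMM-adjusted library size), against 42.8 to 74.7 CPM in the other ovaries. Aged 34 also had the lowest oocyte markers of all, at 73.1 CPM for the 20 markers together. It had the highest summed markers of lymphocytes and plasma cells, of macrophages, and of stroma and smooth muscle. These were at 362, 1640 and 6860 CPM, against at most 148, 890 and 5090 CPM in the other ovaries.

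The replication genes were lower in Aged than in Control ovaries almost throughout, and Aged+CF ovaries lay between the other groups. Together the 54 genes took 0.177, 0.228, 0.187 and 0.224% of the counts in the Control ovaries, 0.116, 0.12 and 0.0976% in the Aged ovaries and 0.15, 0.137 and 0.152% in the Aged+CF ovaries. These shares of the unscaled counts did not overlap between the 3 groups. In TMM-adjusted CPM, however, the summed level was 1380 in both Aged 33 and Aged+CF 32, so Aged and Aged+CF were not clearly separated on that scale. Relative to the mean of Control, the median of the 54 genes lay between -0.20 and 0.20 on the log2 scale in the Control ovaries. It was -0.88, -0.55 and -1.08 in the Aged ovaries and -0.45, -0.59 and -0.43 in the Aged+CF ovaries. In whole ovaries, fewer cells in S phase and less RNA per cell cannot be told apart.

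**Figure D1:**
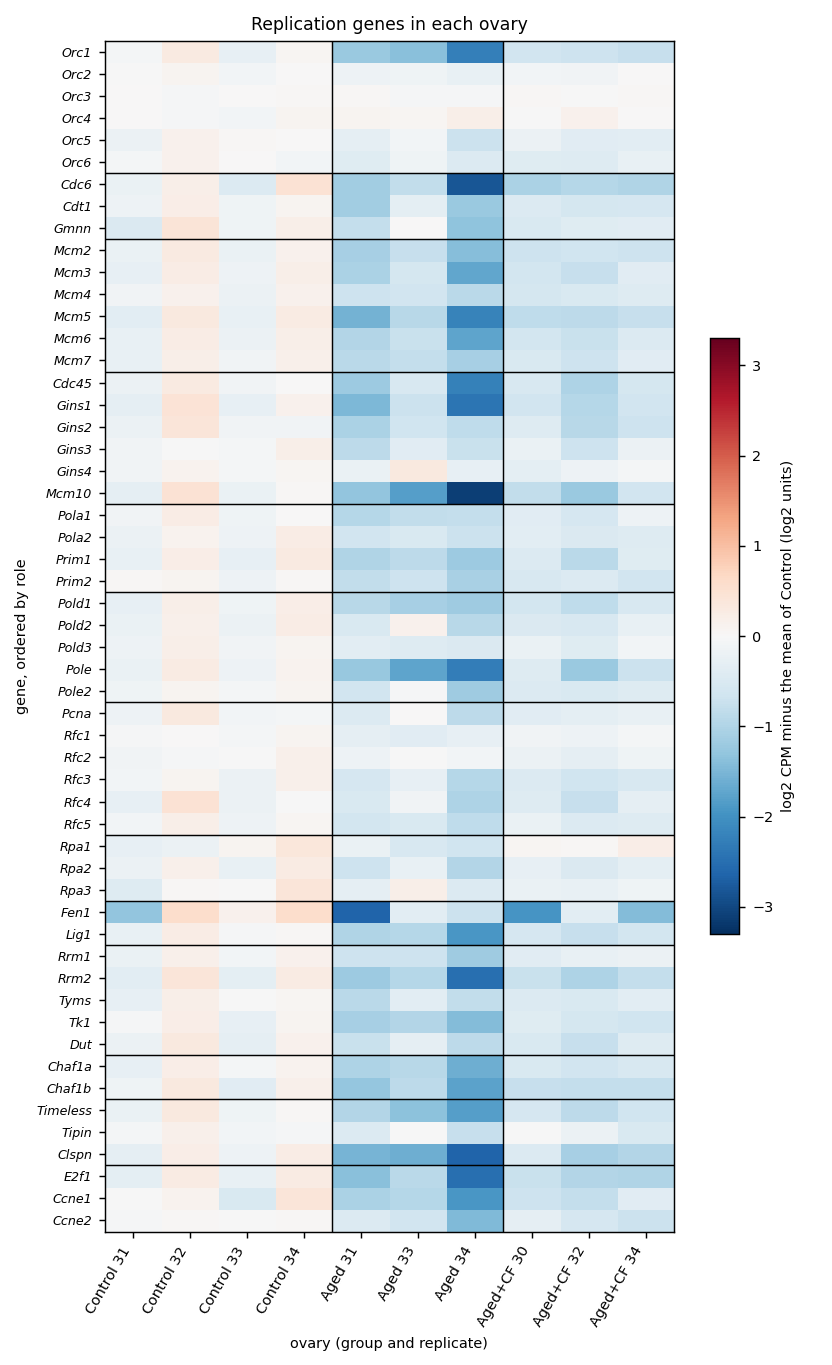
Level of each of the 54 replication genes (rows, ordered by role) in each of the 10 ovaries (columns), as log2 CPM with a prior count of 2 minus the mean of the Control ovaries. Most rows are blue in the Aged ovaries, most deeply in Aged 34, and a paler blue in the Aged+CF ovaries, while Orc3, Orc4 and Gins4 stay near white in most columns.

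In Aged vs Control, 34 of the 54 genes fell by at least 1.5-fold at an adjusted p under 0.05 (63%), where 6.06% of all 18956 genes tested were called lower. None was called higher, where 5% of all genes were, and edgeR gave none with an unadjusted p under 0.05 in that direction, where 15.7% of all genes passed. The median log2 fold change was -0.85, against 0 for all genes tested, and 53 of the 54 estimates were below 0. The adjusted p of the 34 genes ran from 0.00497 to 0.0491. A further 3 genes, Pold3, Rfc1 and Rfc3, were lower at an adjusted p under 0.05 with a change of less than 1.5-fold, and 17 did not pass. In 40 genes (74.1%) every Aged ovary lay below every Control ovary, which held for 15.6% of all genes tested. Leaving out Control 32 or Control 34 left 22 genes each, where 3.38% and 3.48% of all genes were then called lower. Leaving out both Aged 34 and Control 33, with the high oviduct markers, left 27, where 6.54% of all genes were.

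Markers of dividing cells and of oocytes were lower in the same ovaries. The median of the 10 mitosis markers was -1.26, -0.90 and -2.91 in the Aged ovaries and 6 of the 10 fell at adjusted p, where 6.06% of all genes did. The 20 oocyte markers had medians of -2.0, -1.84 and -4.48, and 16 of the 20 fell. The 12 granulosa cell markers had medians between -1.45 and -0.73, but 1 of the 12 fell at adjusted p, a share near that of all genes. Luteal cell markers were higher in the Aged ovaries, with medians between 0.83 and 2.33, and all 10 rose at adjusted p, where 5% of all genes did. Lymphocyte and plasma cell markers had medians between 0.95 and 2.99, with 7 of 10 tested higher at adjusted p. Summed levels were 598 to 783 CPM in Control, 73.1 to 199 CPM in Aged and 265 to 391 CPM in Aged+CF for the oocyte markers. For the mitosis markers they were 496 to 679, 68.4 to 229 and 258 to 398 CPM. The part of these cell types in the result was not tested.

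In Aged+CF vs Aged no replication gene passed at adjusted p in either direction, where 0% of all genes tested were called higher and 0.00528% lower, and the smallest adjusted p was 0.171. At an unadjusted p under 0.05 edgeR placed 16 of the 54 genes higher and none lower, beside 8.06% and 8.27% of all genes tested. The Wald test of DESeq2 called 3 of the 54 genes higher at adjusted p, beside 1.13% of all genes under that test. With the added condition of a 1.5-fold change, 9 genes (16.7%) were higher at unadjusted p, beside 3.91% of all genes tested, and 0 lower, beside 4.05%. These were Orc1, Mcm5, Mcm10, Pole, Lig1, Tk1, Chaf1a, Timeless and Clspn, and the genes that passed at unadjusted p with a smaller change were Mcm7, Pola1, Prim2, Pold1, Rfc1, Rpa1 and Rrm1. The median log2 fold change was 0.31, against -0.02 for all genes, and 47 of 54 estimates were above 0. In 24 genes (44.4%) every Aged+CF ovary lay above every Aged ovary, beside 10.2% of all genes. The count of 9 became 4 without Aged 34 and 5 without Aged+CF 30 or Aged+CF 34, and was 19 without Aged 33. The share of all genes called by the same rule in each of these runs is not given here. This comparison and Aged vs Control share the 3 Aged ovaries, so a low value in an Aged ovary enters both with opposite signs. Cell type markers differed between the same groups. Lymphocyte and plasma cell markers had a median log2 fold change of -1.71 in Aged+CF vs Aged, with 10 of 10 estimates below 0 and 8 lower by over 1.5-fold at unadjusted p. For the luteal cell markers the median was -0.70 with 9 of 10 estimates below 0, of which 1 was lower at unadjusted p. Oocyte markers had a median of 1.03, with 20 of 20 estimates above 0 and 7 higher by over 1.5-fold at unadjusted p. The 10 mitosis markers had a median of 0.83, and 4 were higher by the same rule. No gene of these lists passed at adjusted p, and their part in the result was not tested.

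Aged+CF ovaries stayed below Control ovaries for many of the genes, without an adjusted call. None of the 54 passed at adjusted p, where 0.0422% of all genes were called lower, and the smallest adjusted p was 0.109. At unadjusted p edgeR placed 33 lower and none higher, beside 7.89% and 6.41% of all genes. DESeq2 called 4 lower at adjusted p, beside 1.15% of all genes under that test. Of the 33 genes, 19 were lower by at least 1.5-fold (35.2%), beside 4.36% of all genes, and 0 higher, beside 3.33%. The median log2 fold change was -0.53, against -0.03 for all genes. Every Aged+CF ovary lay below every Control ovary in 41 genes (75.9%), beside 12.2% of all genes. The 19 became 7 without Control 32 or without Aged+CF 32, and 11 without Control 34.

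**Figure D2:**
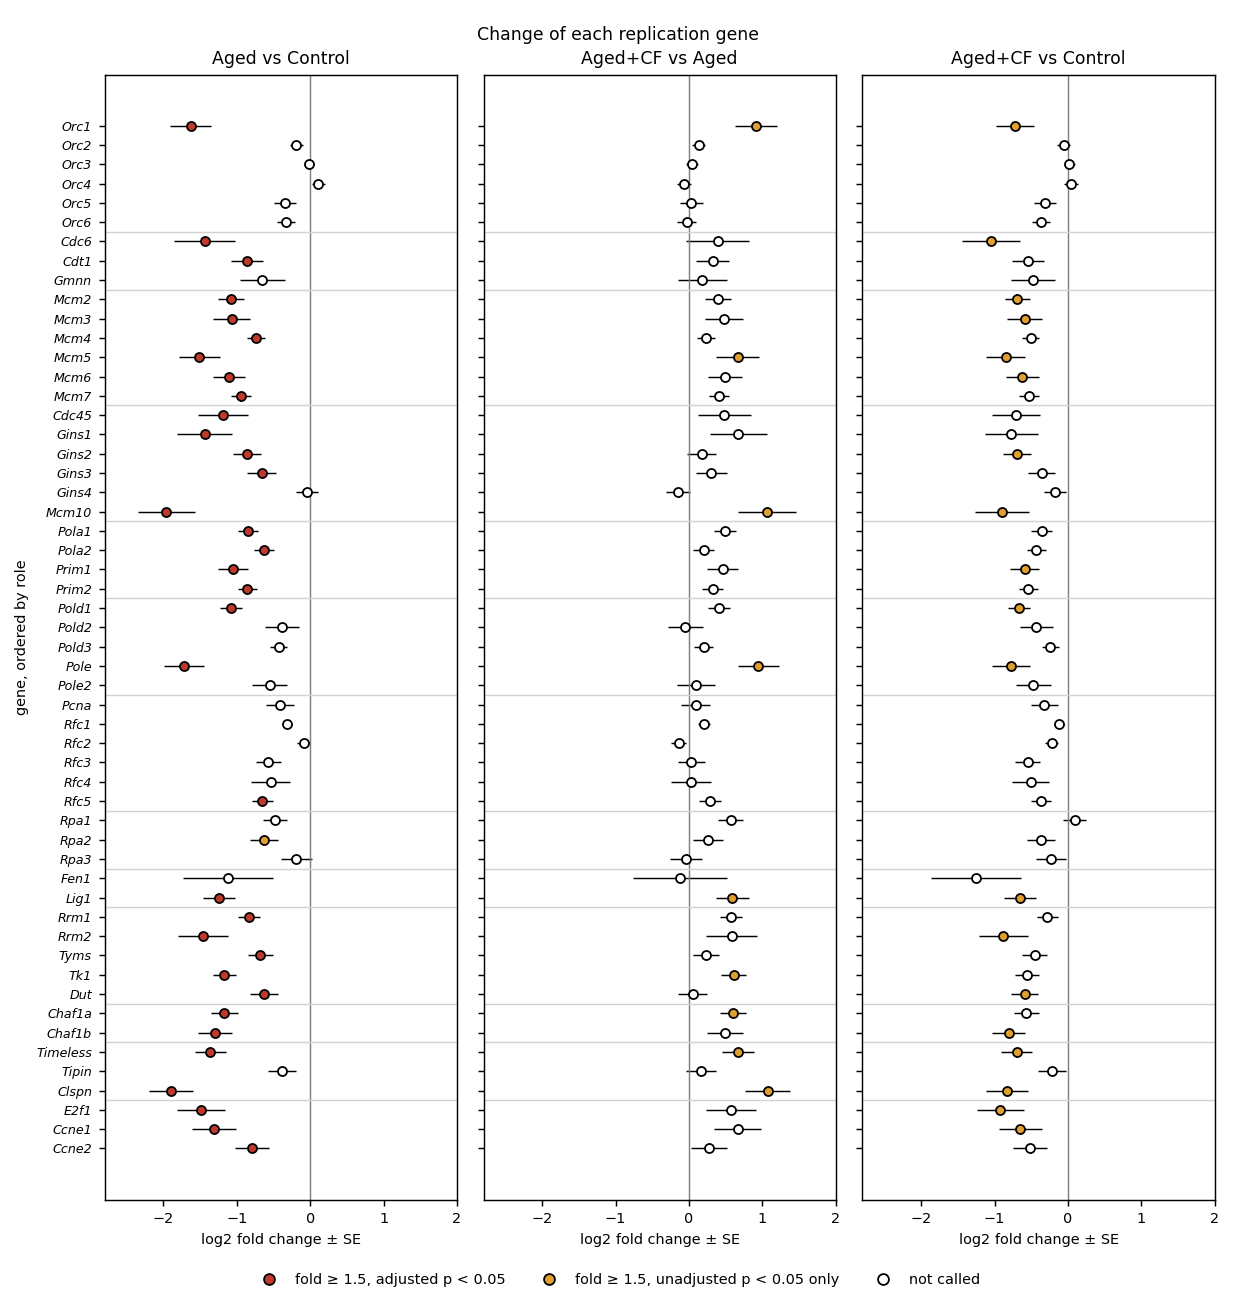
Log2 fold change and its standard error (horizontal axis) of each of the 54 genes in the 3 comparisons. Red points passed a 1.5-fold change at adjusted p under 0.05, orange points only at unadjusted p, and open points neither. The 34 red points are all in Aged vs Control and to the left of 0, and the 9 orange points of Aged+CF vs Aged are to the right.

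The origin recognition complex (ORC) marks the origins, and 1 of its 6 genes was called. ORC1, the subunit that appears in G1 and is lost in S phase, was the subunit whose gene fell. Orc1 was at 5.43, 6.98, 4.72 and 5.94 CPM in Control, 2.39, 2.12 and 1.1 CPM in Aged and 3.67, 3.5 and 3.33 CPM in Aged+CF. The groups were fully separated, with Aged+CF in the middle. Orc1 fell 3.09-fold in Aged vs Control (log2 fold change -1.63 ± 0.28 SE, edgeR adjusted p = 0.00818), and was 1.88-fold higher in Aged+CF vs Aged (0.91 ± 0.29, adjusted p = 0.204). The remaining subunits had log2 fold changes in Aged vs Control of -0.19 (Orc2), -0.02 (Orc3), 0.11 (Orc4), -0.34 (Orc5) and -0.33 (Orc6), none with an adjusted p under 0.05. Orc3 lay between 48.2 and 51.3 CPM in all 10 ovaries. Per length, the highest ORC gene was 5.73 times the lowest in Control, and 15.6 times in Aged, in FPKM, with Orc2 highest and Orc1 lowest in both. Orc1 and Orc3, with their different changes, both carry an E2F-type motif in the windows above.

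Helicase loading factors fell in 2 of 3 cases. Cdt1, whose product brings MCM rings to ORC, was at 16.3, 21.3, 16.4 and 19.4 CPM in Control, 8.23, 14.5 and 7.72 CPM in Aged and 13.3, 12.1 and 12.5 CPM in Aged+CF. All Aged ovaries were below all Control ovaries, and Aged 33 was above every Aged+CF ovary. Its fall in Aged vs Control was 1.81-fold (-0.86 ± 0.22, edgeR adjusted p = 0.0289), and its difference in Aged+CF vs Aged was 0.32 ± 0.23 on the log2 scale (adjusted p = 0.512). Cdc6, the ATPase that works with ORC, fell 2.71-fold (adjusted p = 0.0428). Gmnn, which encodes the CDT1 inhibitor geminin, had a log2 fold change of -0.65 ± 0.31 and an adjusted p of 0.18.

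The genes of the MCM helicase ring, Mcm2 to Mcm7, all 6 fell in Aged vs Control. The falls ran from 1.67-fold in Mcm4 to 2.85-fold in Mcm5, with Mcm2, Mcm3 and Mcm6 between 2.09-fold and 2.16-fold. Mcm7 was at 78.7, 107, 85.3 and 104 CPM in Control, 49.9, 53.7 and 43.5 CPM in Aged and 65.9, 57.4 and 72.0 CPM in Aged+CF. No range overlapped another. Mcm7 fell 1.91-fold in Aged vs Control (-0.94 ± 0.14, edgeR adjusted p = 0.00529). It was 1.33-fold higher in Aged+CF than in Aged (0.41 ± 0.14, adjusted p = 0.223). Mcm5 was at 22.6 ± 9.91 CPM in Aged and 35.6 ± 1.33 CPM in Aged+CF (SD, n = 3 each), and was the ring gene past 1.5-fold there (0.66 ± 0.29, adjusted p = 0.302). The log2 differences of the ring genes in Aged+CF vs Aged had a median of 0.44. Their products form a ring with 1 copy of each. Per length, their mean FPKM lay within 2.2-fold of each other in Control, 2.26-fold in Aged and 2.31-fold in Aged+CF, and each neighbour in the order Mcm6, Mcm4, Mcm7, Mcm5, Mcm3, Mcm2 in Control overlapped the next over the ovaries. Mir25, Mir93 and Mir106b lie within Mcm7 on the same strand.

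Helicase activation genes fell in 5 of 6 cases. Mcm10, which encodes a scaffold needed to start unwinding, had the largest fall of the 54 genes. It was at 12.6, 21.8, 13.4 and 16.0 CPM in Control, 6.20, 4.37 and 1.71 CPM in Aged and 8.89, 6.66 and 10.0 CPM in Aged+CF. Again the 3 groups did not overlap. The fall was 3.9-fold (-1.96 ± 0.39, edgeR adjusted p = 0.0125), and Aged+CF was 2.09-fold higher than Aged (1.06 ± 0.40, adjusted p = 0.245). Cdc45, Gins1, Gins2 and Gins3 fell 2.28-fold, 2.71-fold, 1.81-fold and 1.58-fold. Gins4 did not pass, at 31.1 ± 2.42 CPM in Control (SD, n = 4), 30.3 ± 7.32 in Aged and 27.4 ± 2.27 in Aged+CF (n = 3 each). Its log2 fold change in Aged vs Control was -0.04 ± 0.15. GINS holds 1 copy of each subunit, and the FPKM of Gins4 was 4.93 times that of the next GINS gene, Gins2, in Control and 8.64 times in Aged. In CPM the gap was much smaller, with Gins2 at 22.5 in Control and 12.4 in Aged. The FPKM ratio thus rests largely on the gene lengths the authors used, which were not checked. The annotation places no other gene over Gins4.

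Polymerase alpha and primase start each new strand, and all 4 genes fell in Aged vs Control. Prim2, the large primase subunit, was at 16.9, 17.7, 14.8 and 16.9 CPM in Control, 9.31, 10.2 and 7.83 CPM in Aged and 11.4, 12.0 and 10.7 CPM in Aged+CF. Pola1, the catalytic subunit of polymerase alpha, was at 25, 32, 24.7 and 27.5 CPM, at 14, 15.5 and 15.8 CPM and at 20.8, 18.6 and 24.4 CPM. Both genes kept the 3 groups separate, narrowly so in Pola1, where Aged+CF 34 was just below Control 33. Prim2 fell 1.81-fold (-0.86 ± 0.13, edgeR adjusted p = 0.0062) and Pola1 1.8-fold (-0.85 ± 0.14, adjusted p = 0.00699). The log2 differences of Aged+CF from Aged were 0.32 ± 0.14 for Prim2 (adjusted p = 0.304) and 0.49 ± 0.15 for Pola1 (adjusted p = 0.184), each under 1.5-fold. Prim1 and Pola2 fell 2.07-fold and 1.55-fold. The 4 genes had near equal FPKM, within 1.08-fold in Control, 1.32-fold in Aged and 1.24-fold in Aged+CF, and neighbours in their order overlapped in Control. Their CPM were less alike, from 14.9 in Prim1 to 32.2 in Pola2 in Control. The near equality thus depends on the gene lengths behind the FPKM, which were not checked.

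Of the replicative polymerases, the catalytic subunits fell and the smaller subunits measured did not pass both thresholds. Pold1, the catalytic subunit of polymerase delta, was at 47.7, 66.0, 51.7 and 66.7 CPM in Control, 30.3, 26.9 and 25.2 CPM in Aged and 38.0, 32 and 39.4 CPM in Aged+CF. Pole, its counterpart in polymerase epsilon, was at 25.7, 36.0, 26.9 and 32.5 CPM, at 12.6, 8.96 and 6.07 CPM and at 22.1, 12.8 and 18.2 CPM. Neither gene had overlapping groups, although Aged 31 and Aged+CF 32 were close in Pole. Pold1 fell 2.11-fold (-1.08 ± 0.15, edgeR adjusted p = 0.00497), which shared the smallest adjusted p of the 54 genes with Tk1, and Pole fell 3.29-fold (-1.72 ± 0.27, adjusted p = 0.0064). Pole was 1.92-fold higher in Aged+CF than in Aged (0.94 ± 0.28, adjusted p = 0.184) and Pold1 1.33-fold higher (0.41 ± 0.15, adjusted p = 0.245). The accessory subunits Pold2, Pold3 and Pole2 had log2 fold changes of -0.38, -0.43 and -0.55 in Aged vs Control, of which that of Pold3 passed the adjusted p alone (0.0379). Pole overlaps 2 annotated genes on its strand and 1 on the other.

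Of the clamp and its loader, 1 of 6 genes was called in Aged vs Control. Pcna was at 72.0, 100, 75.6 and 76.1 CPM in Control, 58.6, 80.4 and 43.7 CPM in Aged and 61.5, 64.7 and 68.0 CPM in Aged+CF. Aged 33 was above 3 of the 4 Control ovaries, and the log2 fold change was -0.41 ± 0.19 (edgeR adjusted p = 0.172). Replication factor C (RFC) opens the clamp around DNA. Rfc5 was at 23.6, 28.6, 22.1 and 26.3 CPM in Control, 16.5, 17.7 and 13.8 CPM in Aged and 21.6, 18.2 and 18.5 CPM in Aged+CF, without overlap of Aged with either group. It was the loader gene that fell by over 1.5-fold (1.57-fold, -0.65 ± 0.14, adjusted p = 0.0155). Rfc1, the large subunit, was at 71.2, 74.0, 71.0 and 78.7 CPM, at 59.8, 56.9 and 60.5 CPM and at 67.4, 65.7 and 70.3 CPM. Its ranges were tight in all 3 groups, and it passed with a small change of -0.32 ± 0.07 (adjusted p = 0.0213), the difference of Aged+CF from Aged being 0.20 ± 0.08 (adjusted p = 0.266). Rfc3 was lower by 1.49-fold, just under the threshold, at an adjusted p of 0.0434. Rfc2 and Rfc4 had log2 fold changes of -0.09 and -0.54, and neither passed.

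RPA coats single-stranded DNA at the fork, and none of its 3 genes passed at adjusted p in any comparison. Rpa2 was at 28.9, 37.5, 27.8 and 40.4 CPM in Control, 20.8, 27.8 and 16.8 CPM in Aged and 27.4, 23.9 and 26.7 CPM in Aged+CF. Control 33 and Aged 33 were level at this rounding, and Aged 33 was above every Aged+CF ovary. The log2 fold change in Aged vs Control was -0.63 ± 0.19 (edgeR adjusted p = 0.0526). Rpa1, the largest subunit, was at 61.1, 63.6, 78.7 and 94.4 CPM in Control, 62.8, 50.9 and 46.7 CPM in Aged and 76.9, 75.8 and 85.6 CPM in Aged+CF. Its Aged+CF ovaries lay above all Aged ovaries and within the Control range. Rpa1 was 1.49-fold higher in Aged+CF vs Aged (0.57 ± 0.17, adjusted p = 0.191), while its log2 fold change in Aged+CF vs Control was 0.09 ± 0.16. Rpa3, the smallest subunit, had a log2 fold change of -0.19 ± 0.21 in Aged vs Control.

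Okazaki fragments are trimmed by FEN1 and sealed by DNA ligase I. Lig1 was at 55.6, 77.6, 63.5 and 67.0 CPM in Control, 32.6, 34.2 and 17.2 CPM in Aged and 44.6, 38.3 and 43.0 CPM in Aged+CF, with no overlap. Lig1 fell 2.36-fold (-1.24 ± 0.22, edgeR adjusted p = 0.00949) and was 1.5-fold higher in Aged+CF vs Aged (0.59 ± 0.23, adjusted p = 0.26). Fen1 varied within every group, at 9.86, 36.4, 27.0 and 36.3 CPM in Control, 3.82, 19.2 and 14.9 CPM in Aged and 6.25, 19.2 and 9 CPM in Aged+CF. With that spread its log2 fold change of -1.12 ± 0.61 did not pass (adjusted p = 0.24). Tmem258 and Gm10143 overlap Fen1 on the opposite strand, and the strand setting of the counting is not given in the sources used here.

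All 5 genes of nucleotide supply fell in Aged vs Control. Tk1, thymidine kinase of the salvage route, was at 21.7, 26.2, 18.7 and 23.7 CPM in Control, 10.4, 11.4 and 8.33 CPM in Aged and 17.0, 14.9 and 14.2 CPM in Aged+CF. Rrm1, the large subunit of ribonucleotide reductase, was at 80.7, 106, 88.6 and 104 CPM, at 58.5, 58.6 and 41.5 CPM and at 72.9, 80.0 and 81.9 CPM. Tk1 was separated in all 3 groups, whereas for Rrm1 Aged+CF 34 was above Control 31. Tk1 fell 2.25-fold (-1.17 ± 0.16, edgeR adjusted p = 0.00497) and Rrm1 1.79-fold (-0.84 ± 0.15, adjusted p = 0.00843). Aged+CF ovaries had 1.53-fold more Tk1 than Aged ovaries (0.61 ± 0.17, adjusted p = 0.175) and Rrm1 1.48-fold (0.57 ± 0.15, adjusted p = 0.171), the smallest p of the 54 genes in this comparison. Rrm2, the regulated subunit of the same enzyme, fell 2.75-fold. Tyms, thymidylate synthase, and Dut, which removes dUTP, fell 1.6-fold and 1.55-fold.

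Chromatin assembly factor 1 places histones on new DNA, and both of its genes fell. Chaf1a was at 41.8, 59.0, 48.0 and 54.3 CPM in Control, 24.8, 26.6 and 16.4 CPM in Aged and 35.3, 32.6 and 35.0 CPM in Aged+CF. The groups were separated, with a narrow Aged+CF range. Chaf1a fell 2.25-fold (-1.17 ± 0.18, edgeR adjusted p = 0.00567) and was 1.52-fold higher in Aged+CF vs Aged (0.60 ± 0.18, adjusted p = 0.193). Chaf1b fell 2.45-fold (adjusted p = 0.00949).

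Fork protection genes fell in 2 of 3 cases. Clspn encodes claspin, which couples the fork to checkpoint signalling. It was at 12.9, 18.7, 14.3 and 19.0 CPM in Control, 5.43, 5.15 and 2.48 CPM in Aged and 11.7, 7.41 and 8.20 CPM in Aged+CF. Timeless, the partner of TIPIN at the fork, was at 25.4, 36.9, 26.7 and 30.1 CPM, at 15, 11.4 and 8.22 CPM and at 20.2, 16.3 and 18.7 CPM. Each gene kept the 3 groups apart. Clspn fell 3.73-fold (-1.90 ± 0.30, edgeR adjusted p = 0.0063) and Timeless 2.58-fold (-1.36 ± 0.21, adjusted p = 0.00628). Between Aged+CF and Aged, Clspn was 2.1-fold higher (1.07 ± 0.31, adjusted p = 0.178) and Timeless 1.59-fold (0.67 ± 0.22, adjusted p = 0.211). Tipin did not pass, with a log2 fold change of -0.38 ± 0.19 in Aged vs Control (adjusted p = 0.196).

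The 3 genes that drive entry into S phase all fell. E2f1, a transcription factor that activates many replication genes, was at 19.7, 29.7, 20.7 and 29.6 CPM in Control, 9.36, 13.1 and 4.30 CPM in Aged and 14.7, 12.5 and 12.3 CPM in Aged+CF. Ccne1, a cyclin that activates CDK2, was at 6.71, 7.29, 4.72 and 8.96 CPM, at 3.22, 3.46 and 1.71 CPM and at 4.19, 3.85 and 5.16 CPM. For E2f1 Aged 33 lay within the Aged+CF range, and for Ccne1 Aged+CF 34 lay above Control 33. E2f1 fell 2.8-fold (-1.49 ± 0.33, edgeR adjusted p = 0.0174) and Ccne1 2.48-fold (-1.31 ± 0.30, adjusted p = 0.0199). Their log2 differences in Aged+CF vs Aged were 0.57 ± 0.34 (adjusted p = 0.431) and 0.66 ± 0.32 (adjusted p = 0.331). Ccne2, the second cyclin E, fell 1.73-fold.

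**Figure D3:**
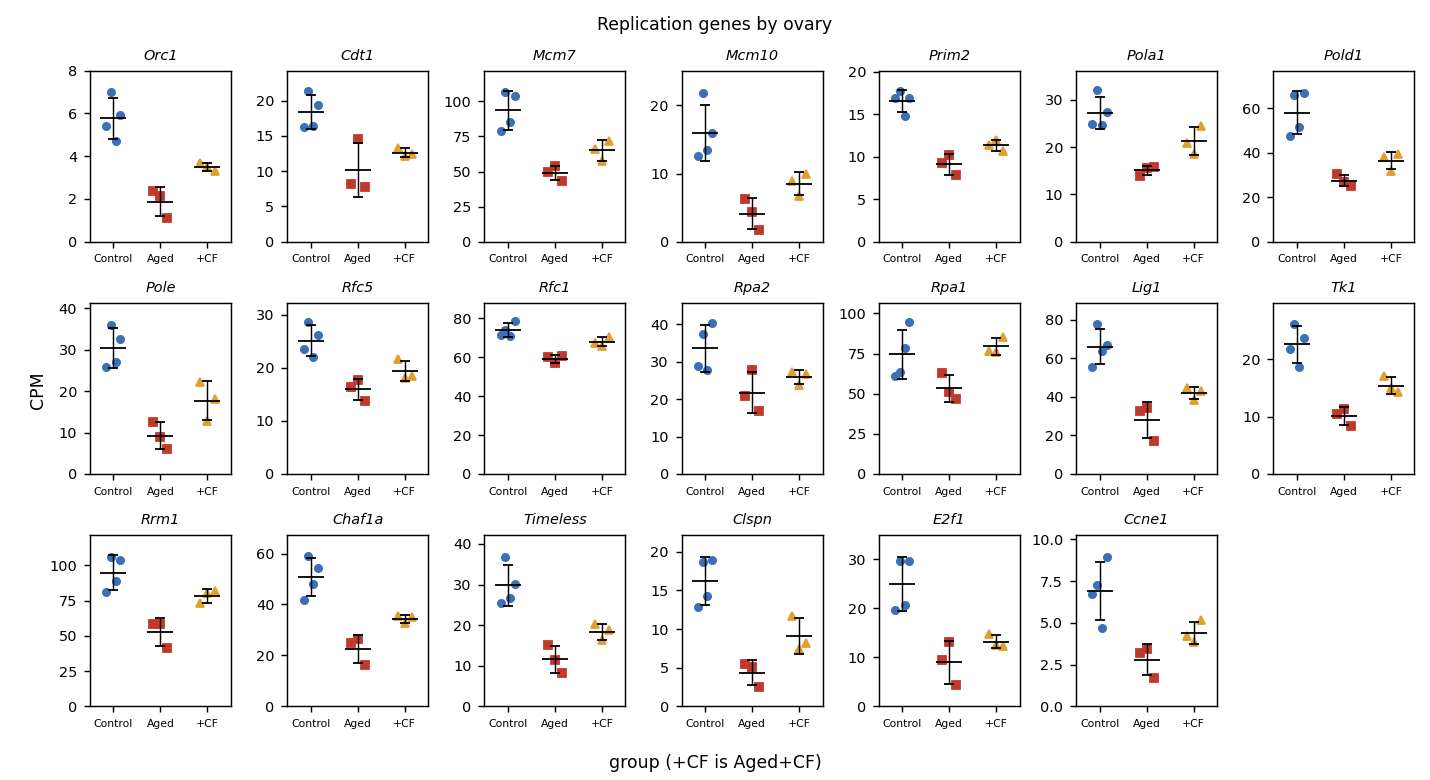
CPM in each ovary (vertical axes, from 0) of the 20 genes whose values are given by ovary for their role, in Control (4 ovaries), Aged (3) and Aged+CF (3), with the mean and SD as horizontal lines and bars. Aged ovaries lie lowest in most panels, while Cdt1, Rpa1, Rpa2 and E2f1 show an Aged ovary reaching into or past another group. Mcm10, Clspn and Pole have the lowest Aged levels relative to Control.

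Levels per length, in FPKM, differed widely between the genes. In Control ovaries the mean FPKM of the 54 genes had a median of 4.78 and ran from 1.35 in Orc1 to 23.8 in Gins4 and Pcna. In Aged ovaries the median was 3.14, and in Aged+CF ovaries 3.37. No gene was below 1 FPKM in Control, while 9 were in Aged and 3 in Aged+CF. These FPKM lack the TMM scaling used for CPM, which bears on differences between groups. Pold2, a polymerase delta accessory subunit, was at 19.7 FPKM in Control, and Pole2, that of polymerase epsilon, at 2.26 FPKM. In the order of the ORC genes in Control, Orc5 and Orc6 overlapped over the ovaries and the other neighbours did not.

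**Figure D4:**
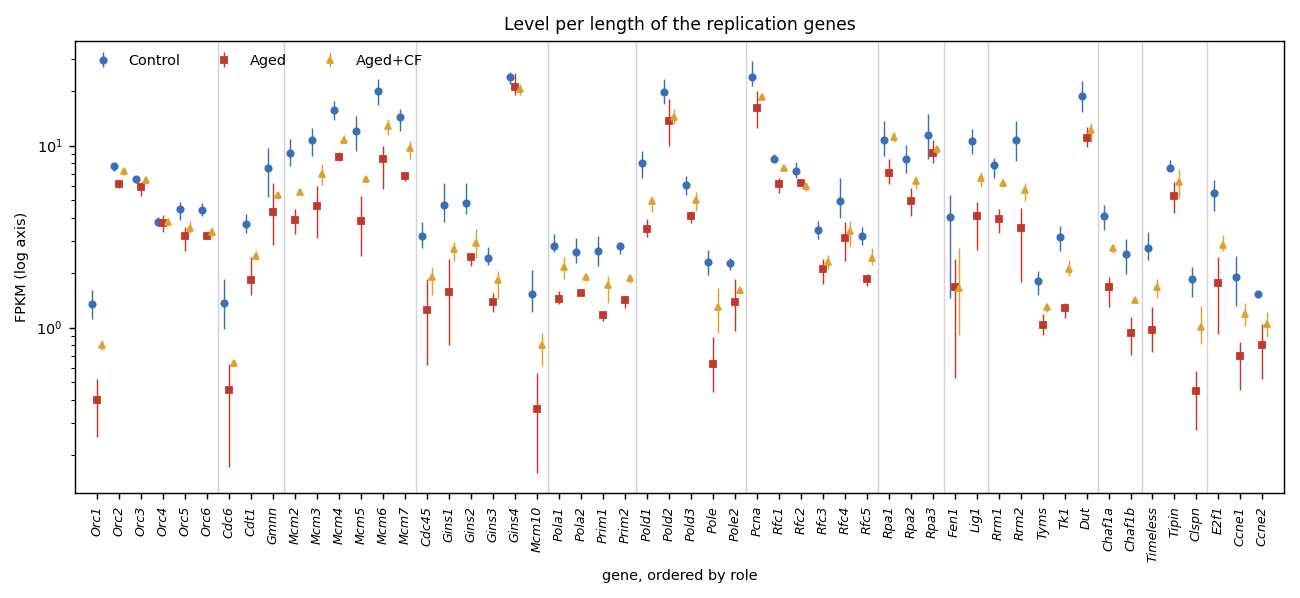
Mean FPKM (points, log axis) of each of the 54 genes in Control, Aged and Aged+CF, with bars from the lowest to the highest ovary, ordered by role. The 4 genes of polymerase alpha and primase sit at nearly equal height in Control, Gins4 stands well above the other GINS genes, and Orc1, Cdc6, Mcm10 and Clspn reach the lowest FPKM in Aged.

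The ovaries differed in the same way across most of the genes. Aged 34 was the lowest Aged ovary in 45 of the 54 genes and the lowest of all 10 ovaries in 44. Aged 33 was the highest Aged ovary in 41. Within Control, ovaries 32 and 34 were both above 31 and 33 in 47 genes, and Aged+CF 32 was the lowest of its group in 39. Over the genes, the coefficient of variation had a median of 15.6% for Control ovaries, 24.2% for Aged and 8.08% for Aged+CF. Over the 10 ovaries the median Pearson r of the 1431 pairs of genes was 0.85, and 0.67 once the group means were taken away. The pairs share the same libraries and their scaling.

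**Figure D5:**
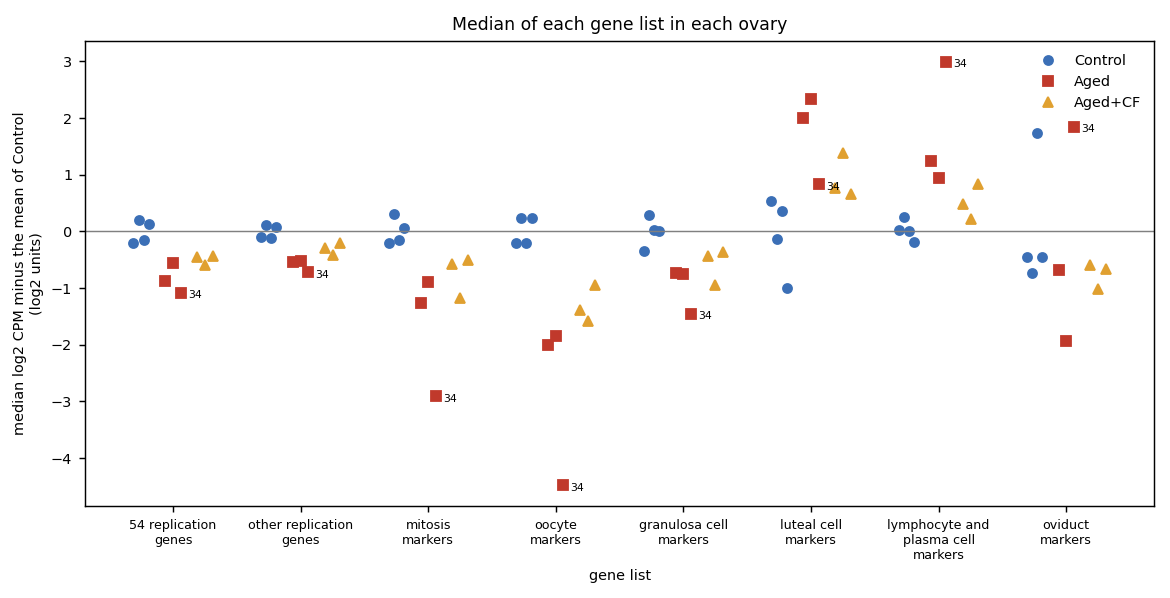
Median over each gene list of log2 CPM minus the mean of Control, for each ovary (points) and each of 8 lists (horizontal axis), with Aged 34 marked. Replication, mitosis, oocyte and granulosa cell lists are lower in Aged and Aged+CF ovaries, luteal and lymphocyte lists are higher, and Control 33 and Aged 34 stand apart in the oviduct list.

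Genes with and without the E2F-type motif both fell. Of the 16 genes with the motif, 12 fell by at least 1.5-fold in Aged vs Control at adjusted p, with a median log2 fold change of -1.0 and a range from -1.9 to -0.02. Of the 28 with a promoter and no match, 16 fell by the same rule, with a median of -0.66 and a range from -1.96 to 0.11. The medians in Aged+CF vs Aged were 0.41 and 0.27, with 4 genes each higher by over 1.5-fold at unadjusted p. The difference between the 2 classes was not tested. Mcm10, with the largest fall, has a promoter in the table and no match in it.

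Replication genes outside the 54 fell more often than they rose in Aged vs Control. From a list of 48 regulators and further fork and nucleotide genes, 21 fell and 1 rose in Aged vs Control at adjusted p with a 1.5-fold change, where 6.06% and 5% of all genes did. The smallest p among those that fell belonged to Wdhd1, a polymerase alpha adaptor (-1.44 ± 0.17, edgeR adjusted p = 0.00358), Topbp1, which helps activate the helicase (-0.64 ± 0.08, adjusted p = 0.00399), and E2f2 (-1.34 ± 0.17, adjusted p = 0.0044). Cdkn1b, which encodes the cell cycle inhibitor p27, rose (1.09 ± 0.28, adjusted p = 0.03), from 128 to 207 CPM in Control to 190 to 491 CPM in Aged, with an overlap of the ranges. Pold4 and Rrm2b were higher at adjusted p with changes of 0.56 and 0.40 on the log2 scale. Of the same list, 11 of the 48 were higher by over 1.5-fold at unadjusted p in Aged+CF vs Aged and none lower, where 3.91% and 4.05% of all genes were. Cdkn1a, which encodes the inhibitor p21, had the smallest p there (1.45 ± 0.31, adjusted p = 0.159). It was at 14.1, 23.1, 25.9 and 25 CPM in Control, 27.3, 15 and 27.0 CPM in Aged and 41.9, 78.2 and 69.4 CPM in Aged+CF, so every Aged+CF ovary was above all others. Wdhd1 and E2f2 followed, at 0.76 and 0.75 on the log2 scale. In Aged+CF vs Control 7 of the 48 were lower and 2 higher by over 1.5-fold at unadjusted p, where 4.36% of all genes were lower and 3.33% higher, and Cdkn1a was higher there as well (1.52 ± 0.29, adjusted p = 0.0719).

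Several of the genes overlap their neighbours, and whether reads of a neighbour were counted on them was not tested. In GENCODE M21, on build GRCm38, 25 of the 54 genes overlap no other gene, 15 overlap a gene on the same strand and 22 on the opposite strand. Of the genes with the largest falls, Mcm10 (chromosome 2, 4989714 to 5012791) overlaps none, Clspn (chromosome 4, 126556935 to 126593903) overlaps Mir7119 and, on the other strand, Gm12936, and Orc1 (chromosome 4, 108579423 to 108614833) overlaps Gm12743 on the other strand. The other positions of genes at the extremes are Pole at chromosome 5, 110286306 to 110337474, and Gins4 at chromosome 8, 23226616 to 23237659.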

How the data were processed

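Total RNA of 10 ovaries was sequenced, with 1 library per ovary and no pooling. The labels place the ovaries in the groups Control, Aged and Aged+CF, and the replicates are ovaries of different mice. Raw counts of reads on each gene were deposited by the authors, together with FPKM values, which the authors scaled by gene length and by the total count. The labels name TopHat, Cufflinks 2.1.1 and build GRCm38.p4, and the annotation, counter and strand setting are not given in the sources used here. Counts were tested with edgeR 4.0.16 in R 4.3.3. Genes were filtered with filterByExpr (minimum count 10), which kept 18956 of 55487, of which 18869 had no count. Libraries were scaled by TMM, a mean per group was fitted to all 10 ovaries, and the quasi-likelihood F test was adjusted over all genes tested by the Benjamini-Hochberg method. A gene was called at a fold change of at least 1.5 with p under 0.05, adjusted as in the study's methods or unadjusted as in its results. Log2 CPM used a prior count of 2. FPKM was used to compare levels between genes, and its values are also listed by group. It is not scaled by TMM, and it rests on the gene lengths the authors used, which were not checked. No pair of libraries was a duplicate. The test was checked on simulated counts.

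The 54 genes, the other lists and the markers were chosen with earlier results of these data known. Values by ovary are given, within each role, for the gene with the smallest p in the comparison of Aged with Control or of Aged+CF with Aged, and further genes (Mcm5, Pcna, Fen1, Gins4, Orc3, Cdkn1a) were named after their values were seen. Alternatives were DESeq2 1.42.0, its size factors, library size alone, no filter, only the 2 groups compared, the replicate number as a block, and each ovary left out. Leaving out Aged 34 and Control 33 together was chosen after seeing the data.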

Additional observations from a re-analysis of the deposited data

Results flagged for a closer look

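Among the 54 replication genes in the 4 Control ovaries, the highest or lowest ovary lay far from the others in 2 genes, both times as a high value in Control 32. Gins2, a subunit of the GINS complex, was at 29.2 CPM in Control 32 and at 19.5 to 20.6 CPM in the other Control ovaries. Pcna, the sliding clamp, was at 100 CPM in Control 32 and at 72.0 to 76.1 CPM in the others. The gap to the nearest ovary was 0.884 and 0.855 of the whole range. Chance flags about 1 in 20 groups, and groups of 3 ovaries were not examined.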

How the results depend on the processing

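The median log2 fold change of the 54 genes kept its sign under every alternative run, at -0.66 to -0.98 in Aged vs Control, 0.16 to 0.46 in Aged+CF vs Aged and -0.46 to -0.58 in Aged+CF vs Control. The counts of calls moved more. In Aged vs Control the 34 genes lower at adjusted p became 22 to 39 when an ovary was left out. In those runs 3.38% to 7.54% of all genes were called lower. In Aged+CF vs Aged the 9 genes higher at unadjusted p became 15 with scaling by library size alone, 4 without Aged 34 and Control 33 together, and 4 to 19 when an ovary was left out, and DESeq2's Wald test called 3 at adjusted p (1.13% of all genes). In Aged+CF vs Control the 0 genes lower at adjusted p became 4 with DESeq2's Wald test (1.15% of all genes) and 7 with only the 2 groups compared (1.37% of all genes). They became 1 without Aged 34 and Control 33 (0.455% of all genes), and 0 to 2 when an ovary was left out (0.00511% to 0.869% of all genes). The 19 at unadjusted p became 7 to 24. For all counts at unadjusted p in these runs, the share of all genes is not given here. The genes without overlap in Aged+CF vs Aged went from 24 to 39 without Aged 33. With fewer Aged ovaries any gene separates more easily, and the share of all genes in that run is not given here. In the 100 bases before the start, the E2F-type motif was found in 11.4% and CCAAT in 45.5% of the 44 genes with a promoter, in place of 36.4% and 56.8%. The causes were not tested. Scaling by library size alone shifted the median of all genes in Aged vs Control to -0.13, and the genes called lower and higher at adjusted p from 6.06% and 5% to 8.6% and 3.43%. In Aged+CF vs Aged the same scaling moved the median log2 fold change of all genes from -0.02 to 0.07.

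Ovaries with the same replicate number come from different mice, and their deviations from the group means had correlations of -0.18 to 0.15, over 0.1 in 2 of 6 pairs, so the number was not taken to pair them. With the replicate block, 0 replication genes were called lower at adjusted p in Aged vs Control. Of all genes tested, 0.127% were then called lower, against 6.06% without the block. At unadjusted p, 34 replication genes were lower by at least 1.5-fold in that comparison. By the same rule, 1 replication gene was higher in Aged+CF vs Aged and 11 were lower in Aged+CF vs Control. Shares of all genes at unadjusted p with the block are not given here, so these counts stand without a background.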
